A study of Mus musculus with 32 samples.

Results

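Sarcomeric myosin heavy chains were followed in the tibialis anterior (TA), a fast muscle of the mouse shin, during the first weeks of life in wild-type (WT) mice and in mice without Mtm1. The 6 genes were taken by name from a table of 54838 genes: Myh3 (embryonic chain), Myh8 (perinatal chain), Myh7 (slow or beta-cardiac chain) and Myh2, Myh1 and Myh4 (fast chains IIa, IIx and IIb). All 6 were measured in all 32 libraries and passed the filter on low counts in every comparison. Mtm1, an X-linked gene, encodes myotubularin, a phosphoinositide phosphatase, and its loss causes X-linked myotubular myopathy. The KO animals were males with a deletion in exon 4 of Mtm1 in every tissue, and the WT animals were littermates, both on a C57BL6/J background and without treatment. RNA was sequenced at postnatal day (P)1, P14, P21 and P35 with n=4 libraries per genotype and age, which the labels number without saying what a number shares between groups. The comparisons asked how the KO differed from WT at each age, how each chain moved from 1 age to the next, and whether the difference between genotypes itself changed with age.

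A myosin heavy chain is the motor of the thick filament, and the chain that a fibre contains largely sets how fast it shortens. Limb muscle of the newborn mouse is built with the embryonic and perinatal chains, which are replaced after birth by the adult fast chains, while slow fibres keep the slow chain. Regenerating adult fibres transiently use the embryonic and perinatal chains again. Each gene encodes 1 chain, so the set of transcripts in a muscle is a common readout of fibre type and maturity.

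Of the 6 genes, 5 lie head to tail on the plus strand of chromosome 11 (GRCm38), in the order Myh3 (67078300 to 67102291), Myh2 (67171027 to 67197517), Myh1 (67200052 to 67224575), Myh4 (67238029 to 67260446) and Myh8 (67277124 to 67308634). Myh7 lies alone among the 6, on the minus strand of chromosome 14 (54970684 to 54994626). The region of 250 bases before to 50 bases after the annotated start was available for all 6 from RefSeq (GRCm38.p6), and it is shown for the 4 neighbours that share long runs of bases. The capitals mark runs of 10 or more bases present in at least 3 of the 6 promoters.
Coordinates are chr11:67170777-67171076 for Myh2, chr11:67199852-67200151 for Myh1, chr11:67237562-67237861 for Myh4 and chr11:67276874-67277173 for Myh8, all read 5′ to 3′ on the plus strand.
Myh2: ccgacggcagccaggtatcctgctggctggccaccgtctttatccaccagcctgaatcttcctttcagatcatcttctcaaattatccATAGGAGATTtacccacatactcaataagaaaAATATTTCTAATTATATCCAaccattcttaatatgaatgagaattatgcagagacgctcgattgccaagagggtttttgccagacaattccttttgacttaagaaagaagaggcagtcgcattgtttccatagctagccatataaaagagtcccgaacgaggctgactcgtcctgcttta
Myh1: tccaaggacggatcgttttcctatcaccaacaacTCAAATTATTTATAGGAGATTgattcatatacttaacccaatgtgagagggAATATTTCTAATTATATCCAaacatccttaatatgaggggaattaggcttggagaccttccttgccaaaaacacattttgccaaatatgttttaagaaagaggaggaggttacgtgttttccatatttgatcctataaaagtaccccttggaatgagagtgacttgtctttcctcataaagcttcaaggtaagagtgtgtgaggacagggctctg
Myh4: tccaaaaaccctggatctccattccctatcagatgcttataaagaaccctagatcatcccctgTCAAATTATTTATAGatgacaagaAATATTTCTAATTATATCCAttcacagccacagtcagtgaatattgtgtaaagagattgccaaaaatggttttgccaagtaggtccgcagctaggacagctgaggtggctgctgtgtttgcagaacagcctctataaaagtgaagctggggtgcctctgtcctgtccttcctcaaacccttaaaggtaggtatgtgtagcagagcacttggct
Myh8: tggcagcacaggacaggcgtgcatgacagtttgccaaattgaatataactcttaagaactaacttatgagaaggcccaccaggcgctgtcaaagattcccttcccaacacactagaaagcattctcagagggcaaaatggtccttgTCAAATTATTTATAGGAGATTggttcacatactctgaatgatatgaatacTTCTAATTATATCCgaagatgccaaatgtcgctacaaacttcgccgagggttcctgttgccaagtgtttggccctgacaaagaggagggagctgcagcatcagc
The run TTCTAATTATATCC was in all 4 of these promoters and in only 4 of the 32851 promoters of the table on either strand (0.0122%). Its first base lay at position -125 from the start in Myh2, -160 in Myh1, -158 in Myh4 and -54 in Myh8. In the 3 adult fast chains it was part of a longer run, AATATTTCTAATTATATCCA, which 3 promoters of the table held. A second run, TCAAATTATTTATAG, was in Myh8, Myh1 and Myh4 and in 3 promoters of the table, and ATAGGAGATT was in Myh8, Myh2 and Myh1 and in 13 promoters. Neither Myh3 nor Myh7 held any of these runs. The MEF2 site by its usual consensus was found in Myh1, Myh4 and Myh8 and in 3.19% of all promoters, and in these 3 genes it lay inside the run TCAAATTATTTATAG. An E-box (CANNTG, both strands) was found in Myh3, Myh4, Myh8 and Myh7, against 72.3% of all promoters. These matches describe letters in a window and say nothing of what binds there. Of the 4 genes that share runs, Myh8 was the most abundant chain at P1 and the other 3 were the most abundant from P14.

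The libraries summed to 49321035 to 85631408 counts each. The lowest count of any of the 6 genes in any library was 58, for Myh3 in 1 WT library at P21. Levels are given as CPM, the common scale of counts relative to library size, here with library sizes scaled by TMM over all 32 libraries. Groups were compared with the quasi-likelihood test of edgeR, with P-values adjusted over all genes tested (Benjamini-Hochberg), and genes whose adjusted P-value fell below 0.01 and whose level differed by more than 1.5-fold are called differentially expressed genes (DEGs). Mtm1 was 5.26 to 6.02 CPM in WT and 2.32 to 3.91 CPM in KO libraries at P1, and 18.9 to 24.9 CPM in WT and 2.64 to 4.51 CPM in KO libraries from P14 to P35, without overlap at any age, and was a DEG at P14, P21 and P35 (edgeR, log2 fold changes of -2.34, -2.71 and -2.56) but not at P1 (-0.98, adjusted P-value of 0.0668). Markers of skeletal muscle fibres were high in every group, and the summed level of 6 cardiac markers was at most 2.75 CPM, so heart markers were at or near 0 beside the beta-cardiac chain Myh7. In the 8 libraries of P1 the summed level of 12 keratinocyte markers was 2017 to 7302 CPM, against at most 60.4 CPM in any later library, and their part in the P1 values was not tested. One P1 library stood apart within muscle genes: in KO replicate 4 the sum of 7 muscle fibre markers was 16827 CPM, against 24469.9 to 33277 CPM in the other 3 KO libraries. In bulk RNA, fewer fibres of a type and less RNA per fibre cannot be told apart. The 5 clustered genes are similar in sequence: 9.73% of the 100-base windows of the Myh1 transcript and 9.17% of those of Myh2 occur in another of the 6 chains or in the neighbouring Myh13, against 3.85% for Myh4, 6.61% for Myh8, 1.15% for Myh3 (shared with Myh13) and 0% for Myh7. Some reads of the clustered genes could therefore be shared out among them by the counting. For Myh8 the shared part was 21.4% with 50-base windows, and at P35 Myh8 was low beside Myh1 and Myh4. How far such reads entered the values of any chain was not tested.

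The developmental chains dominated at P1 and gave way to the adult fast chains by P14 in both genotypes. Myh3 was 1939, 2265, 1967 and 2141 CPM in the 4 WT libraries at P1 and 47.9, 65.3, 30.9 and 23.1 CPM at P14, a change of -5.65 on the log2 scale (SE 0.332, edgeR adjusted P-value of 3.94e-07). Myh8 was 13864 to 18382 CPM at P1 and 71.2 to 539 CPM at P14 in WT, a change of -5.72 on the log2 scale (SE 0.629, adjusted P-value of 2.03e-05). Every P14 library was below every P1 library for both genes. In the opposite direction, WT Myh2 was 46.6 CPM ± 6.04 (SD, n=4) at P1 and 1847 CPM ± 335 at P14, Myh1 was 208 CPM ± 40.3 and 11909 CPM ± 1721, and Myh4 was 67.4 CPM ± 13.6 and 61751 CPM ± 7000. The log2 fold changes were 5.30 for Myh2, 5.83 for Myh1 and 9.83 for Myh4, with adjusted P-values of at most 3.96e-08. Myh4, the fastest chain, had the largest log2 fold change of the 6. Of the 6 genes 5 were DEGs between P1 and P14 in WT, where 55.1% of all genes tested were. Myh7 was the exception, at 443 to 564 CPM at P1 and 386 to 686 CPM at P14 (log2 fold change of 0.11, SE 0.170, adjusted P-value of 0.554).

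**Figure D1:**
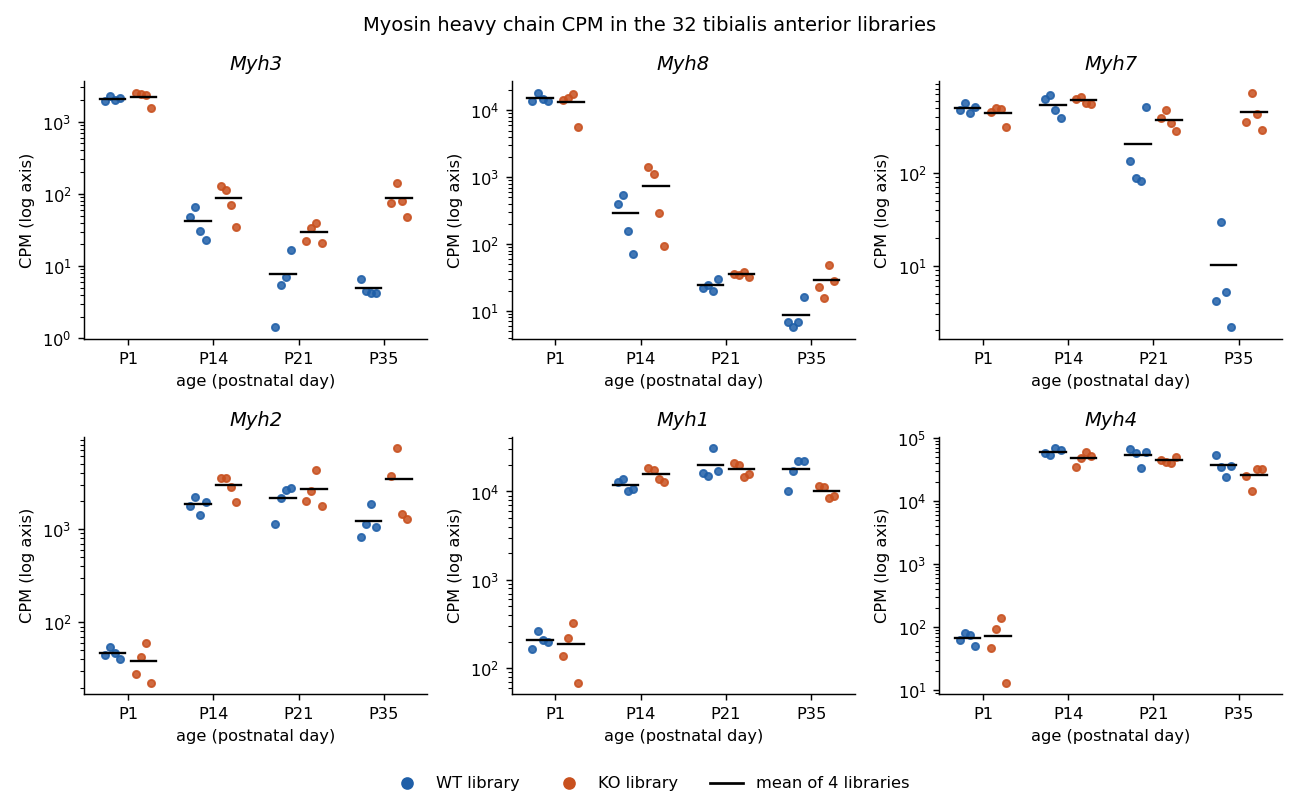
CPM of the 6 myosin heavy chain genes (log axis) in each of the 32 TA libraries by age (postnatal day), WT in blue and KO in orange, with bars at the mean of 4 libraries. Myh3 and Myh8 start high and are lower from P14, and Myh2, Myh1 and Myh4 start low and are high from P14. In KO Myh3 is higher at P35 (47.8 to 142 CPM) than at P21 (21.0 to 39.7 CPM). Myh7 at P35 is 2.17 to 29.3 CPM in WT and 288 to 730 CPM in KO.

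Scaled by the length of their exons, the chains could also be set against each other. At P1 Myh8 held 74.1% ± 1.51 (SD, n=4) of the length-scaled sum of the 6 genes in WT and Myh3 held 19.7% ± 1.41, and together they held 93.8% in WT and 93.8% in KO. At P14 the share of this pair was 0.263% in WT and 0.726% in KO, and Myh2, Myh1 and Myh4 together held 99.2% and 98.6%. The adult pattern in WT was 66.4% ± 13.6 for Myh4, 31.7% ± 12.8 for Myh1 and 1.94% ± 0.987 for Myh2 at P35. The exons of Myh8 span 11772 bases in the annotation but its longest transcript 6149 bases, and with the longest transcript of each gene Myh8 held 83.8% at P1 in WT and Myh3 11.7%. The largest share belonged to the same gene in all 8 groups with either length. All 6 genes together took 2.75% of all counts in WT at P1, 6.70% at P14 and 4.18% at P35, and 3.98% in KO at P35.

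**Figure D2:**
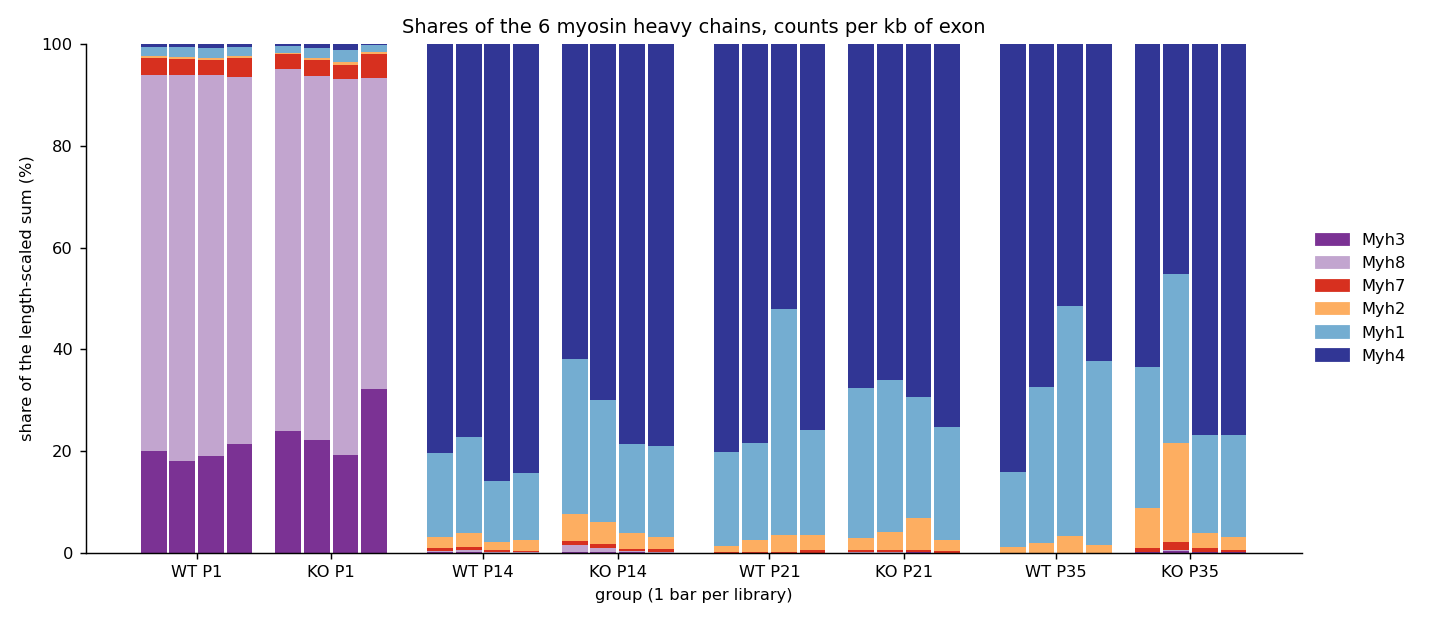
Share of each gene in the sum of the 6 genes after division by exon length (percent, stacked to 100), 1 bar per library in the order of replicates 1 to 4. Myh8 and Myh3 fill 93.1% to 95.1% of every P1 bar, and Myh4 and Myh1 fill most of every later bar, with the largest Myh2 block (19.5%) in replicate 2 of the KO at P35.

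The order of levels per kb of exon was stable at its top. From P14 on it ran Myh4, Myh1, Myh2 in both genotypes, and the ranges of these 3 did not overlap in any of the 6 groups. By exon length Myh7 came next below them by its mean in every group from P14, but at P14 its range overlapped that of Myh8 in both genotypes, and in WT at P35 its range per kb (0.252 to 3.40 CPM) overlapped those of Myh3 (0.694 to 1.10) and Myh8 (0.485 to 1.38), so that the 3 lowest chains could not be ordered. In KO at P35 Myh7 (33.4 to 84.7 CPM per kb), Myh3 (7.90 to 23.5) and Myh8 (1.35 to 4.07) followed each other without overlap. The order of the lower chains depended on length in 3 groups. By mean level per kb Myh3 was above Myh8 in KO at P21 and in WT at P35 with exon length and below it with the longest transcript, and in KO at P14 Myh7 was above Myh8 with exon length and below it with the longest transcript. At P1 the order in WT was Myh8, Myh3, Myh7, Myh1, Myh4, Myh2 without overlap between neighbours, and in KO the last 4 overlapped with their neighbours.

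Both developmental chains of WT muscle were lower in every P21 library than in every P14 library. Myh8 was 71.2 to 539 CPM at P14, 19.6 to 30.3 CPM at P21 and 5.71 to 16.2 CPM at P35 in WT. The step from P14 to P21 was a DEG (log2 fold change of -3.60, SE 0.565, adjusted P-value of 0.00286), whereas that from P21 to P35 did not pass (-1.47, SE 0.314, adjusted P-value of 0.0150). For Myh3 the step from P14 to P21 did not pass (-2.45, SE 0.603, edgeR adjusted P-value of 0.0179), and it was a DEG without WT replicate 4 of P21 (-3.17, 0.00720). Myh3 was 1.42, 5.51, 6.96 and 16.8 CPM at P21 and 6.67, 4.56, 4.20 and 4.27 CPM at P35 in WT. The P21 values spanned the P35 values, and the change did not pass (log2 fold change of -0.66, SE 0.562, adjusted P-value of 0.430). Of the 6 genes 1 was a DEG from P14 to P21 in WT, where 5.53% of all genes were, and 0 from P21 to P35, where 2.45% were. That 0 stands beside 3 genes with an unadjusted P-value under 0.05 (Myh8, Myh7 and Myh2). By DESeq2 2 were DEGs (Myh8 and Myh7), where 877 of 25364 genes tested were.

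In KO muscle the developmental chains overlapped with WT at P1 and were higher than in WT at P35. At P1 Myh3 was 2510, 2437, 2357 and 1544 CPM in KO, spanning the WT range, with a change of 0.10 on the log2 scale (SE 0.161, adjusted P-value of 0.825). Myh8 was 14424, 15308, 17636 and 5687 CPM in KO (log2 fold change of -0.19, SE 0.313, adjusted P-value of 0.832). Both lowest values came from KO replicate 4, the library low in muscle markers, and without it the log2 fold change of Myh8 was 0.058 and that of Myh3 was 0.24. None of the 6 genes was a DEG at P1 in edgeR or DESeq2, 0 had an unadjusted P-value under 0.05, and 0.0442% of all genes were DEGs at that age.

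At P14 both developmental chains varied widely within each genotype, and KO and WT libraries with the same replicate number were high or low together. Myh3 was 47.9, 65.3, 30.9 and 23.1 CPM in WT libraries, against 129, 112, 69.6 and 34.3 CPM in KO for replicates 1 to 4. Myh8 was 405, 539, 155 and 71.2 CPM in WT libraries, against 1432, 1116, 287 and 95.0 CPM in KO. Each KO library was above the WT library of the same number for both genes, while the 2 groups overlapped. Over all genes, libraries of the same number deviated together at P14 (correlation of 0.190 to 0.588 in the 4 pairs), which was not so at the other ages. Without pairing neither gene passed (Myh3 log2 fold change of 1.05, SE 0.439, adjusted P-value of 0.709, and Myh8 1.33, SE 0.859, adjusted P-value of 0.867). With the replicate number as a block, Myh3 was 1.00 (SE 0.115, adjusted P-value of 0.00148) and Myh8 1.05 (SE 0.171, adjusted P-value of 0.00837), so that the count of DEGs among the 6 went from 0 to 2. The block also raised the count over all 15728 genes tested from 5 to 98. The labels do not say that these libraries are pairs, so the blocked values rest on pairs read from these data. Without the block 0.0318% of all genes were DEGs at P14, DESeq2 called 0 of the 6, and 2 of the 6 had an unadjusted P-value under 0.05 (Myh3 and Myh2).

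At P21 both developmental chains were higher in every KO library than in every WT library, but neither met the rule for DEGs. Myh3 missed it by its adjusted P-value alone, and Myh8 by its adjusted P-value and its fold change. Myh3 was 21.9, 34.1, 39.7 and 21.0 CPM in KO against 1.42 to 16.8 CPM in WT (log2 fold change of 1.94, SE 0.561, adjusted P-value of 0.0371). Myh8 was 36.2, 35.0, 38.7 and 31.9 CPM in KO against 22.1, 24.9, 19.6 and 30.3 CPM in WT (0.56, SE 0.126, adjusted P-value of 0.0133). The highest WT value of each gene came from replicate 4. Without that library Myh3 was 2.66 (adjusted P-value of 0.00813) and Myh8 0.69 (adjusted P-value of 0.00361), both DEGs. Of the 6 genes 2 had libraries that did not overlap, where 24.7% of all genes tested did not, and 0 were DEGs, where 4.67% were. DESeq2 also called 0 of the 6, and 2 had an unadjusted P-value under 0.05.

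At P35 the embryonic chain was higher in KO than in WT. Myh3 was 75.5, 142, 79.9 and 47.8 CPM in KO and 6.67, 4.56, 4.20 and 4.27 CPM in WT, a change of 4.16 on the log2 scale (SE 0.338, adjusted P-value of 7.01e-05) or 17.9-fold. The lowest KO library was several times the highest WT library. Myh8 was 22.8, 15.9, 47.95 and 28.5 CPM in KO and 6.74, 5.71, 6.72 and 16.2 CPM in WT, a change of 1.72 on the log2 scale (SE 0.404, adjusted P-value of 0.00808) or 3.30-fold. WT replicate 4 and KO replicate 2 overlapped for Myh8, and the call was less firm than that of Myh3: it held in 2 of the 8 fits that each left out 1 library (log2 fold change of 1.36 to 2.19, adjusted P-values between 0.00233 and 0.0257), and it was lost without any 1 of WT replicates 1, 2 and 3 or KO replicates 1, 3 and 4. It was also lost with all 32 libraries in 1 fit (adjusted P-value of 0.0200). Myh3 remained a DEG in all 8. Measured against P1 the levels of both genes in KO at P35 stayed small: the pair held 0.271% ± 0.139 (SD, n=4) of the length-scaled sum in KO and 0.0169% ± 0.00318 in WT.

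Within the KO the 2 developmental chains were also followed from P21 to P35. Myh3 was 21.0 to 39.7 CPM at P21 and 47.8 to 142 CPM at P35, without overlap (log2 fold change of 1.58, SE 0.328, adjusted P-value of 0.0103), which just missed the rule. It was a DEG with DESeq2, without the filter on low counts, with library totals, with all 32 libraries in 1 fit and without KO replicate 4 of P35. Myh8 was 31.9 to 38.7 CPM at P21 and 15.9 to 47.95 CPM at P35 (-0.29, SE 0.275, adjusted P-value of 0.469). The WT libraries of the same 2 ages overlapped for Myh3 and did not for Myh8. The test of whether the difference between genotypes grew from P21 to P35 gave 2.21 (log2, SE 0.643, adjusted P-value of 0.0665) for Myh3 and 1.15 (SE 0.805, adjusted P-value of 0.484) for Myh8, neither of which passed.

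**Figure D3:**
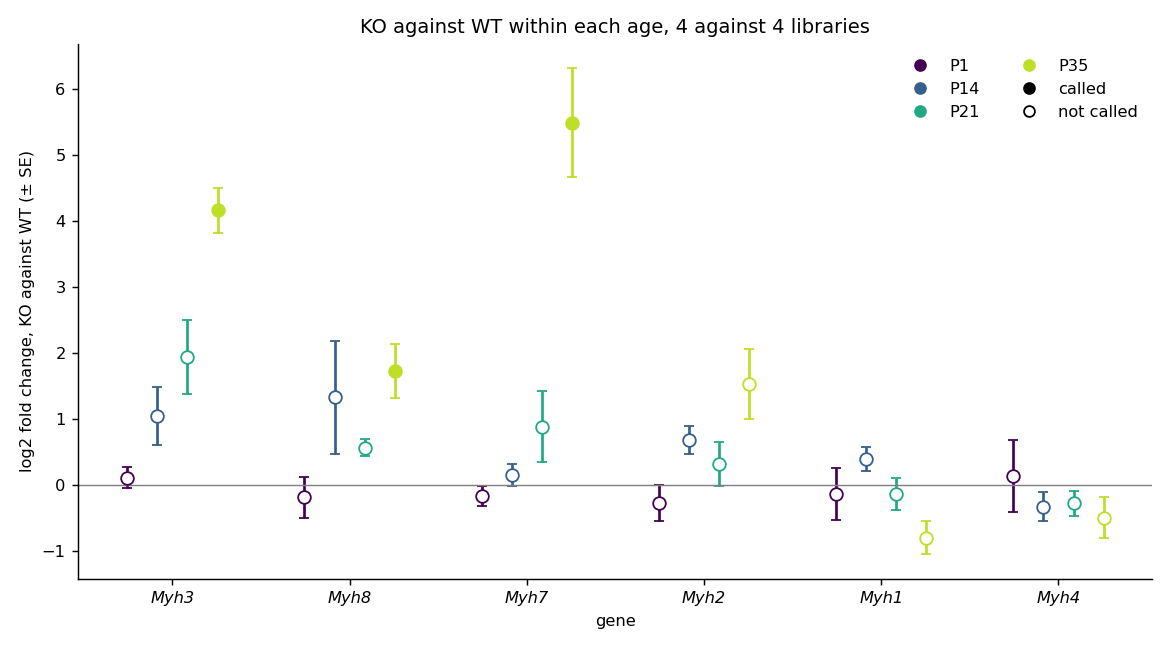
Log2 fold change of KO against WT (± SE) for each gene within each age, 4 against 4 libraries, with filled circles for DEGs and open circles for genes that did not pass. At P35 Myh7 (5.49), Myh3 (4.16) and Myh8 (1.72) are filled, and Myh1 (-0.81) and Myh4 (-0.50) lie below 0.

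Of the 6 genes the slow chain had the largest log2 fold change between genotypes at P35. Myh7 was 4.14, 29.3, 5.22 and 2.17 CPM in WT libraries, against 350, 730, 434 and 288 CPM in KO, a change of 5.49 on the log2 scale (SE 0.825, adjusted P-value of 8.74e-04) or 45.0-fold. Every KO library was far above every WT library. At P14 the genotypes had overlapped, with 627, 686, 481 and 386 CPM in WT libraries, against 631, 654, 571 and 556 CPM in KO (0.14, SE 0.171, adjusted P-value of 0.960), and at P1 the log2 fold change was -0.18 (SE 0.151, adjusted P-value of 0.688). The KO values at P35 spanned those of both genotypes at P1 and P14 (315 to 686 CPM). The WT values were lower than that range in all 4 libraries at P35 and in 3 of 4 at P21: 136, 88.2, 82.2 and 512 CPM at P21 and 2.17 to 29.3 CPM at P35.

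Values of Myh7 at P21 turned on 1 WT library. In KO it was 388, 475, 345 and 279 CPM, and the 3 WT libraries at 82.2 to 136 CPM were all below these, whereas WT replicate 4 (512 CPM) was above all of them. With all 8 libraries the log2 fold change was 0.88 (SE 0.539, adjusted P-value of 0.277), and without WT replicate 4 it was 1.88 (adjusted P-value of 0.00177), a DEG. The same library was also the highest WT library of P21 in 3 slow troponin genes: Tnni1 was 43.0 CPM against 12.0 to 13.9 CPM in the other 3, Tnnc1 was 71.5 CPM against 18.5 to 21.3 CPM, and Tnnt1 was 132 CPM against 36.5 to 67.0 CPM. What set it apart was not tested.

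From P21 to P35 Myh7 was -4.34 (SE 0.953, adjusted P-value of 0.0166) in WT, where the libraries of the 2 ages did not overlap, and 0.29 (SE 0.274, adjusted P-value of 0.458) in KO. From P14 to P21 it fell in KO by 0.72 on the log2 scale (SE 0.147, adjusted P-value of 0.00844), and in WT the value was -1.42 (SE 0.558, adjusted P-value of 0.0891). That call in KO was lost in 6 of the 8 fits that left out 1 library, those without KO replicates 1, 2 and 3 of P14 or 1, 3 and 4 of P21 (log2 fold change of -0.60 to -0.75 among these, adjusted P-values between 0.0163 and 0.0305), and with library totals or all 32 libraries in 1 fit. The test of the change in genotype difference gave 4.60 (log2, SE 0.776, adjusted P-value of 0.00171) for Myh7 between P21 and P35, and the call held in all 16 fits that left out 1 library of those ages (3.59 to 6.01). It did not hold when only the 16 libraries of the 2 ages were fitted. Myh7 was the 1 gene of the 6 to pass this test, which 0.463% of all genes passed, and 0 of the 6 passed it from P1 to P14 or from P14 to P21, where 0.0161% and 0.425% of all genes did. In DESeq2 those 2 counts were also 0, and 0 of the 6 had an unadjusted P-value under 0.05 in either.

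The 10 slow fibre partners are proteins of the slow contractile apparatus and calcium store. At P35 6 of them were DEGs with higher levels in KO than in WT (Atp2a2, Myl2, Tnnc1, Tnni1, Tnnt1 and Tpm3) and 0 with lower. Of all genes tested, 8.49% were higher and 7.52% lower by the same rule. The median log2 fold change was 1.77 over the list, against 0.04 over all genes tested. This list and the gene lists below were chosen with earlier results of these data known, so their counts are descriptions only. Tnni1, slow troponin I, was 3.97 to 5.73 CPM in WT and 72.4 to 145 CPM in KO (4.50, SE 0.255, adjusted P-value of 1.19e-05). Tnnt1, slow troponin T, was 8.69 to 15.1 CPM and 160 to 417 CPM (4.40, SE 0.330, adjusted P-value of 4.92e-05), and Tnnc1, slow troponin C, 2.49 to 9.67 CPM and 93.6 to 162 CPM (4.36, SE 0.374, adjusted P-value of 8.97e-05). In all 3 the WT and KO libraries were far apart, as they were for Myh7, and KO replicate 2 was the highest of the KO libraries in each. At P1, P14 and P21 0 of the 10 partners were DEGs. At P21 the median log2 fold change over the list was 0.56, against 0.008 over all genes tested. That comparison includes WT replicate 4, the highest WT library for the 3 slow troponin genes. Fast fibre partners gave no DEG at any age (0 of 11), where 0.0442% of all genes were DEGs at P1, 0.0318% at P14 and 4.67% at P21. At P35 8.49% of all genes were DEGs with higher and 7.52% with lower levels in KO. Thus 0 of so few genes is no result about the list. The median log2 fold change over the list was -0.44 at P35. When library totals were used instead of TMM, the median over all genes tested was 0.44 at this age. The smallest adjusted P-values there were those of Atp2a1, the fast calcium pump (-0.75, 0.0103), Actn3, a Z-disc protein of fast fibres (-0.92, 0.0105), and Tpm1 (-0.75, 0.0177).

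**Figure D4:**
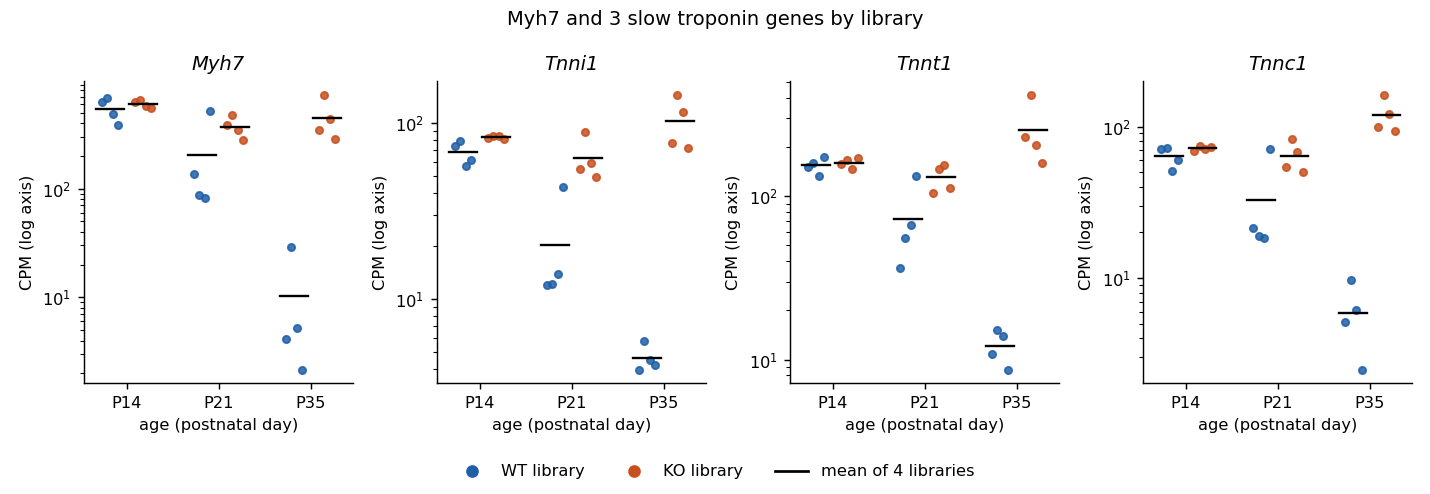
CPM (log axis) of Myh7 and of 3 slow troponin genes in each library at P14, P21 and P35, WT in blue and KO in orange, with bars at the mean of 4 libraries. At P35 every KO point lies above every WT point in each panel, and WT replicate 4 of P21 sits apart from the other 3 WT libraries of that age for Myh7, Tnni1 and Tnnc1.

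None of the 3 adult fast chains was a DEG between genotypes at P35 in the edgeR test, although Myh1 and Myh2 had an unadjusted P-value under 0.05 and DESeq2 called Myh1. At P35 Myh1 was 10004, 16957, 22112 and 22219 CPM in WT libraries, against 11423, 11205, 8499.8 and 8900.1 CPM in KO (log2 fold change of -0.81, SE 0.252, adjusted P-value of 0.0287). Only WT replicate 1 lay within the KO range, and without it Myh1 was -1.01 (adjusted P-value of 0.00306), a DEG. Myh4 was 54262, 35159.8, 23985 and 36208 CPM in WT libraries, against 24884, 14359.6, 32067 and 32508 CPM in KO (-0.50, SE 0.312, adjusted P-value of 0.220). With library totals in place of TMM Myh1 was -0.40 and Myh4 -0.10. Myh2 was 827, 1119, 1851 and 1057 CPM in WT libraries, against 3688, 7344, 1437 and 1274 CPM in KO (1.53, SE 0.535, adjusted P-value of 0.0445). KO replicates 1 and 2 were above all WT libraries and replicates 3 and 4 were within their range, so the KO group was split into high and low libraries for Myh2. KO replicate 2, with the most Myh2, also had the most Myh7 and Myh3 and the least Myh4 of the 4, and without it Myh2 was 0.82 (adjusted P-value of 0.126). With all 32 libraries in 1 fit Myh2 was a DEG (adjusted P-value of 0.00435).

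In count, 3 of the 6 genes were DEGs with higher levels in KO than in WT at P35 (Myh3, Myh7 and Myh8) and 0 with lower levels. Of all genes, 8.49% were DEGs with higher and 7.52% with lower levels in KO. With library totals in place of TMM 93.0% of the DEGs were higher, against 53.0% with TMM, and the same 3 chains were called. Libraries of the genotypes did not overlap for 2 of the 6 (Myh3 and Myh7), against 39.6% of all genes tested. The sum of 7 markers of skeletal muscle fibres was 48664 to 61587 CPM in KO and 68740.0 to 93764 CPM in WT at this age. That of 12 keratinocyte markers was 43.7 to 60.4 CPM and 14.8 to 16.8 CPM. Of these 12 only 5 passed the filter, and 3 were DEGs (Perp, Sfn and Trp63), all higher in KO. Of 5 adipocyte markers 4 were higher and 0 lower, and of 6 macrophage markers 3 and 0. Of 5 satellite cell markers 0 were higher and 2 lower, and of 4 endothelial markers 0 and 2. The part of any of these in the values of the 6 genes was not tested. The 3 fast chains together held 98.9% ± 0.645 (SD, n=4) of the length-scaled sum in KO at this age.

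At the earlier ages too no fast chain was a DEG between genotypes. At P14 Myh2 was 1428 to 2226 CPM in WT and 1954 to 3558 CPM in KO (0.68, SE 0.213, adjusted P-value of 0.578, and 0.66 with an adjusted P-value of 0.0279 with the block), Myh1 0.39 (0.748 and 0.0225) and Myh4 -0.33 (0.880 and 0.102). At P21 the log2 fold changes were 0.31 for Myh2, -0.15 for Myh1 and -0.28 for Myh4, with adjusted P-values of at least 0.325, and that of Myh1 was 0.023 with library totals. From P14 to P21 the fast chains gave no DEG in either genotype: Myh1 was 10238 to 13938 CPM at P14 and 14948 to 30787 CPM at P21 in WT, without overlap, with an adjusted P-value of 0.0661 in edgeR and 0.00620 in DESeq2. From P21 to P35 in KO Myh1 passed the rule, going from 14574 to 20805 CPM down to 8499.8 to 11423 CPM (-0.81, SE 0.161, adjusted P-value of 0.00884). That call was lost in 7 of the 8 fits that left out 1 library (log2 fold change of -0.73 to -0.90, adjusted P-values between 0.0120 and 0.0274 among these), the fit without KO replicate 2 of P35 being the exception, and with library totals, all 32 libraries in 1 fit or the replicate block. In WT Myh1 was -0.17 (adjusted P-value of 0.732) over the same step, and the test of the difference between the genotypes gave -0.68 (SE 0.438, adjusted P-value of 0.443), so a difference in this step was not shown. Over the same step in KO Myh4 was -0.77 (SE 0.238, adjusted P-value of 0.0437), also without overlap of the libraries of the 2 ages, and did not pass.

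The steps between ages in the KO were tested in the same way as in WT. From P1 to P14 the same 5 genes were DEGs in KO as in WT, where 52.6% of all genes were, with log2 fold changes of -4.70 for Myh3, -4.21 for Myh8, 6.25 for Myh2, 6.36 for Myh1 and 9.36 for Myh4. Myh7 was 0.43 (adjusted P-value of 0.0306). From P14 to P21 Myh8 fell by 4.39 on the log2 scale (SE 0.749, adjusted P-value of 0.00403) and Myh7 by 0.72, 2 of the 6 where 7.04% of all genes were DEGs, and Myh3 was -1.58 (adjusted P-value of 0.0165). From P21 to P35 1 of the 6 was a DEG (Myh1), where 4.01% of all genes were. The call of Myh8 from P14 to P21 was lost with the replicate block in both genotypes and was held in 3 of 8 fits that left out 1 library in KO and 5 of 8 in WT. It was lost without WT replicate 1 of P14 or WT replicates 1 and 2 of P21, and without KO replicate 2 of P14 or any KO replicate of P21, with log2 fold changes of -3.40 to -3.61 in WT and -4.12 to -4.44 in KO.

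Genes between and beside the clustered chains were read with the same test. 2310065F04Rik is a long noncoding RNA on the minus strand between Myh3 and Myh2 (67112461 to 67120080), with no exon shared with a myosin gene. At P35 it was 86.8 to 174 CPM in WT and at most 40.7 CPM in KO, a DEG with lower levels in KO (-1.94, SE 0.295, adjusted P-value of 9.08e-04). It was also lower at P21, at 56.4 to 96.7 CPM in WT and 21.2 to 42.3 CPM in KO (-1.14, SE 0.234, adjusted P-value of 0.00929). In WT it rose from 1.92 CPM ± 0.226 (SD, n=4) at P1 to 40.8 CPM ± 14.9 at P14 (4.40, SE 0.271, adjusted P-value of 5.16e-07), as the fast chains did, and its mean was 125 CPM at P35. Myhas, an antisense RNA that runs from within Myh1 to the start of Myh4, shares 515 exonic bases with Myh1 on the other strand; the counting is not stated to use strand, so its reads cannot be told from those of Myh1. Myhas was 0.185 CPM ± 0.0829 (SD, n=4) at P1 and 68.2 CPM ± 14.1 at P14 in WT, and was -0.79 (adjusted P-value of 0.130) in KO at P35. 9430073C21Rik, antisense to the end of Myh2 with 237 shared bases, was at most 3.41 CPM in any library and was no DEG between genotypes. Myh13, the chain of extraocular and laryngeal muscle, lies downstream of Myh8. At P21 it was 23.3 to 44.8 CPM in WT and 13.5 to 18.2 CPM in KO, a DEG with lower levels in KO (-1.03, SE 0.186, adjusted P-value of 0.00530). Its log2 fold change was -0.45 at P35 (adjusted P-value of 0.472).

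Among 8 other myosin heavy chains at P35, Myh14, a non-muscle chain, was higher in KO than in WT (0.75, SE 0.0926, adjusted P-value of 3.35e-04) and 0 were lower. This 1 of 8 is near the 8.49% of all genes that were higher, and the median over the list was -0.06. Myh7b, a slow-type chain that carries a microRNA, was 0.95 (adjusted P-value of 0.0449) and Myh10, a non-muscle chain, 0.62 (adjusted P-value of 0.0629). Developmental sarcomere and fusion partners gave 5 higher (Chrng, Myl4, Mymx, Ncam1 and Tnnt2) and 1 lower (Actc1, cardiac actin) of 7, where 8.49% and 7.52% of all genes were, with a median of 2.18. This list too was chosen with earlier results of these data known, so its counts are descriptions only. Myl4, the embryonic essential light chain, was 7.86 CPM ± 3.63 (SD, n=4) in WT and 66.4 CPM ± 38.1 in KO (3.10, SE 0.440, adjusted P-value of 6.61e-04). Tnnt2, the cardiac and embryonic troponin T, was 4.59 to 6.17 CPM and 17.4 to 32.5 CPM (2.18, SE 0.198, adjusted P-value of 1.12e-04), and Ncam1, an adhesion molecule of immature and denervated fibres, 6.80 to 10.1 CPM and 22.2 to 36.7 CPM (1.91, SE 0.186, adjusted P-value of 1.36e-04). At P21 4 of these 7 were already higher (Myl4, Mymx, Ncam1 and Tnnt2) and Actc1 lower, where 4.67% of all genes were DEGs in either direction, and at P14 Myl4 alone was higher, where 0.0318% were DEGs. Actc1, which is also expressed in developing muscle, thus moved against the other DEGs of its list.

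Of 29 regulators of fibre type and myosin genes, 6 were higher in KO than in WT at P35 (Mef2c, Myf6, Myog, Nfatc2, Rcan1 and Tead4) and 3 lower (Mstn, Ppargc1a and Sox6). Of all genes, 8.49% were higher and 7.52% lower, and the median over the list was -0.16. Ppargc1a, a coactivator of mitochondrial and slow fibre genes, was 52.0 to 66.6 CPM in WT and 22.6 to 27.4 CPM in KO (-1.15, SE 0.0978, adjusted P-value of 8.51e-05). Rcan1, a calcineurin target and inhibitor, was 90.7 to 117 CPM and 192 to 284 CPM (1.26, SE 0.150, adjusted P-value of 2.93e-04), and Tead4, a transcription factor of muscle differentiation, was 3.04 to 4.94 CPM and 9.37 to 15.2 CPM (1.72, SE 0.196, adjusted P-value of 2.40e-04). At P21 6 of the 29 were higher (Hdac4, Mef2c, Myf6, Myog, Rcan1 and Tead4) and Ppargc1a was lower, where 4.67% of all genes were DEGs in either direction. Sox6 represses slow fibre genes, and Mstn is myostatin, an inhibitor of muscle growth. Among 13 tested genes of myosin folding and the thick filament, 2 were higher in KO (Myom3 and Trim63) and 3 lower (Mybpc2, Myom1 and Trim55). These are small counts to set beside the same 8.49% and 7.52% of all genes, and the median was -0.31. Myom3, an M-band protein, was 19.9 to 41.7 CPM in WT and 119 to 429 CPM in KO (adjusted P-value of 9.93e-04), with the highest value in KO replicate 2, and Myom1, another M-band protein, was -0.60 (adjusted P-value of 0.00149). Trim63, a ubiquitin ligase of the sarcomere known as MuRF1, was 146 to 200 CPM in WT and 324 to 469 CPM in KO (1.28, SE 0.133, adjusted P-value of 1.71e-04).

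Likeness between genes was measured as Pearson's r of log2 CPM (prior count 2) over the 32 libraries, among 18577 other genes. The libraries share their ages and genotypes, so the values are descriptions only. Myh8 was most like Arhgap36 (0.993), Rtl1 (0.989) and Marcksl1 (0.983), and Myh3 was most like Tnnt2 (0.984), Carhsp1 (0.982) and Usp11 (0.980). Myh7 was most like 3 genes of the slow contractile apparatus, Tnnc1 (0.942), Tpm3 (0.936) and Myl2 (0.933). These lists depended on the measure: by Spearman's rho Tpm3 was still at rank 2 for Myh7 (0.863), but Myl2 was at rank 20 (0.750) and Tnnc1 at rank 687 (0.584), and Magi2 (0.887) came first. For the fast chains too none of the 3 genes nearest by r was among the 3 nearest by rho, whereas Arhgap36 for Myh8 and Carhsp1 for Myh3 were in both lists. Myh2 was most like Trim7 (0.970), Lynx1 (0.970) and Map3k20 (0.968), Myh1 like P2ry2 (0.993), Mief2 (0.991) and Tcaim (0.988), and Myh4 like Eef1a2 (0.997), Fxyd1 (0.994) and Rpl3l (0.993). Within the 6 genes r was 0.951 to 0.982 among the 3 fast chains and 0.919 between Myh3 and Myh8, and between these groups it was -0.770 to -0.886. Myh7 stood between them, at 0.574 with Myh3 and -0.233 with Myh4.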

How the data were processed

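RNA of the tibialis anterior was sequenced from poly(A)-selected, strand-marked, paired-end libraries. The authors deposited expected counts per gene, which the submitters' processing notes tie to STAR 2.6.1, RSEM 1.2.22 and GRCm38; the paper's methods name HTSeq, and the annotation release and strand setting of the counting are not given in the sources used here. Expected counts share out reads among similar genes, and 4.26% were not whole. All columns of values were used (0 left out).

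Rounded counts went into edgeR 4.0.16 under R 4.3.3 (filterByExpr, TMM, glmQLFit and glmQLFTest, two-sided, Benjamini-Hochberg over all genes tested). Each comparison of 2 groups was fitted on its 8 libraries, and changes of the genotype difference on all 32. The test gives no SE, so the SE printed is the absolute log2 fold change divided by the square root of its F statistic. Plotted and printed CPM use 1 TMM scale over 18583 genes. DEGs between groups needed both an adjusted P-value below 0.01 and a difference of more than 1.5-fold, changes of the genotype difference the former alone. GENCODE M21 gave coordinates and lengths, and RefSeq the promoters. On simulated data for KO against WT at P35, 95% of genes changed by a 2-fold difference were recovered (15157 genes). For the change of the genotype difference from P21 to P35 it was 45% (15861 genes). The simulation gave all genes 1 spread, whereas that of the chains varied, so these shares may not hold for the chains.

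Named are the 6 chains, Mtm1, annotated genes from Myh3 to Myh13 with 10 or more counts in a library, the 3 genes of each list with the smallest adjusted P-value at P35, the 3 genes most like each chain, and marker sums; other DEGs of a list are named with its count. The chains and lists were chosen with earlier results of these data known. Same-numbered libraries were taken as pairs where every pair correlated over 0.1 after removal of group means, which held for KO against WT at P14 alone. The pairs were thus read from these data and not from the labels. Alternatives were DESeq2 1.42.0, its size factors, library totals, TMM without the chains and mitochondrially encoded genes, no filter, the replicate block, other fits and thresholds, and leaving out each library. Intervals cover counting and replicate spread only, as reads carried no molecular identifiers.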

Additional observations from a re-analysis of the deposited data

Results flagged for a closer look

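Each of the 48 sets of 4 libraries (6 genes in 8 groups) was searched for a highest or lowest library far from the rest, measured as its gap to the nearest library divided by the range of the group. At Dixon's 95% critical value, chance alone gives about 2.4 such sets, and 6 were found. Myh7 in WT replicate 4 at P21 was 512 CPM against 82.2 to 136 CPM in the other 3, and Myh7 in WT replicate 2 at P35 was 29.3 CPM against 2.17 to 5.22 CPM. Myh8 in WT replicate 4 at P35 was 16.2 CPM against 5.71 to 6.74 CPM, and Myh3 in WT replicate 1 at P35 was 6.67 CPM against 4.20 to 4.56 CPM. Myh1 in WT replicate 3 at P21 was 30787 CPM against 14948 to 17166 CPM. The lowest library was apart in 1 case, Myh3 in KO replicate 4 at P1, with 1544 CPM against 2357 to 2510 CPM. Of these, WT replicate 4 at P21 decided calls of Myh3, Myh8 and Myh7 against KO, and the others decided no call of the gene concerned between genotypes. The causes were not tested.

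The difference between genotypes in Myh7 was larger at P35 than at P21 by 4.60 on the log2 scale (SE 0.776, adjusted P-value of 0.00171, edgeR), tested as an interaction over all 32 libraries. With only the 16 libraries of the 2 ages it was 4.62 (SE 1.00, adjusted P-value of 0.0349) and did not pass the threshold of 0.01.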

How the results depend on the processing

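The log2 fold changes and differences of the 6 genes were recomputed in 13 comparisons. DESeq2's size factors and TMM without the chains and mitochondrially encoded genes changed no call. The count of DEGs among the 6 genes moved by more than 1.5-fold, or to or from 0, as follows. In brackets stand the DEGs over all genes tested with the same setting. They are not given for an adjusted P-value under 0.05 or for fits without 1 library, so those counts are descriptions only. Smaller moves with a setting are not listed, such as that at P35 with DESeq2, which called Myh1 as well. At P14 it was 2 with the replicate block (98 of 15728), which takes same-numbered libraries as pairs although the labels do not say that they are. At P21 it was 1 with library totals (1157 of 15179) and 1 with all 32 libraries in 1 fit (895 of 18583). At an adjusted P-value under 0.05 without a fold threshold it was 2, where it was 5 at P35. From P14 to P21 in WT it was 3 with DESeq2 (1356 of 25922), 2 without the filter (934 of 25936) and 0 with the replicate block (144 of 15337). In the same step it was 2 with all 32 libraries (1270 of 18583) and 2 at the looser threshold. From P21 to P35 in WT it was 2 with DESeq2 (877 of 25364), 2 without the filter (468 of 25379) and 1 with the block (175 of 15039). In the same step it was 1 with all 32 libraries (744 of 18583) and 2 at the looser threshold. In KO from P14 to P21 it was 1 with library totals (898 of 15585) and 1 with the block (487 of 15585). From P21 to P35 in KO it was 3 with DESeq2 (1234 of 26704) and 2 without the filter (707 of 26738). In that step it was 0 with the block (80 of 15734) and 3 at the looser threshold. The change of the genotype difference from P21 to P35 gave 0 with only the 16 libraries of the 2 ages (9 of 16028). Leaving out 1 library gave 0 to 3 DEGs at P21, 2 to 3 at P35, 0 to 3 from P14 to P21 in WT, 0 to 1 from P21 to P35 in WT, 0 to 3 from P14 to P21 in KO and 0 to 1 from P21 to P35 in KO. Outside P14 the replicate numbers did not pair the libraries by the check used, and 3 calls were lost with the block there, with log2 fold changes of -3.26 for Myh8 from P14 to P21 in WT, -3.74 for Myh8 in the same step in KO and -0.81 for Myh1 from P21 to P35 in KO.

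No DEG changed direction under any setting. Values that were not DEGs and changed sign were Myh4 at P1 with the block (-0.27), Myh1 at P21 with library totals (0.023), Myh7 from P1 to P14 with library totals (-0.63 in WT and -0.26 in KO), and Myh4 in the change of the genotype difference from P14 to P21 without the filter (-0.0020). From P1 to P14 the median over all genes was -0.85 in WT and -0.81 in KO with totals, against -0.080 and -0.095 with TMM. Over the fits without 1 library the values that crossed 0 ranged from -0.37 to 0.058 for Myh8, -0.54 to 0.13 for Myh1 and -0.38 to 0.48 for Myh4 at P1, from -0.034 to 0.46 for Myh2 and -0.26 to 0.14 for Myh1 at P21, from -0.0037 to 0.25 for Myh7 from P1 to P14 in WT, from -1.01 to 0.059 for Myh3 and -0.30 to 0.15 for Myh1 from P21 to P35 in WT, from -0.042 to 0.46 for Myh7 and -0.31 to 0.72 for Myh2 from P21 to P35 in KO, and for Myh4 in the change of the genotype difference from -0.80 to 0.057 (P1 to P14), -0.14 to 0.14 (P14 to P21) and -0.40 to 0.0018 (P21 to P35). The cause of these moves was not tested. The gene with the largest length-scaled share was the same in all 8 groups under each length and without any 1 library. Each of the 6 genes had at least 58 counts in every library, and whether depth limited any call was not tested.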
